A study of Homo sapiens with 32 samples.

Results

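The 10 histone lysine demethylase genes KDM2A, KDM2B, KDM3B, KDM4A, KDM4B, KDM4C, KDM5A, KDM5B, KDM6A and KDM6B were described across m6A peak lists from chromatin-associated RNA. They were taken by name, and a peak was counted for a gene if it overlapped the gene body of the RefSeq annotation of GRCh38 by 1 bp, on either strand. These are 10 of 19156 genes that held a peak in any list. MeRIP-seq pulls down RNA fragments with an antibody to N6-methyladenosine (m6A), and a peak is a stretch where the pulled-down fragments exceed the background. Chromatin-associated RNA of 4 cancer cell lines was profiled after short hairpin RNA knockdown of METTL3, the enzyme that writes m6A on messenger RNA, and in control cells of the same line. OVCAR8 knockdown, OVCAR8 control, SKOV3 knockdown and SKOV3 control (ovarian cancer lines) have 2 peak lists each, 1 for each MeRIP library. LOVO knockdown, LOVO control, RKO knockdown and RKO control (colorectal cancer lines, labelled as colon adenocarcinoma) have 1 list each, so that values of these lines have no replicate error. All controls are labelled WT in genotype, and by their titles the OVCAR8 and SKOV3 controls carried a control hairpin. The titles of LOVO and RKO do not state one, but the names of their deposited control lists do (shControl). Nothing in the labels says that the replicates came from separate cultures, so the spread between them may be technical.

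Histone lysine demethylases of the Jumonji class are iron- and 2-oxoglutarate-dependent dioxygenases that remove methyl groups from lysines of histone tails. KDM2 enzymes act on H3K36, KDM3 enzymes on H3K9, KDM4 enzymes on H3K9 and H3K36, KDM5 enzymes on H3K4, a mark of active promoters, and KDM6 enzymes on H3K27, the mark laid by Polycomb repressive complex 2. m6A is placed by METTL3 with METTL14 on nascent transcripts, mostly in a GGAC context and with many sites in long exons and near stop codons.

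Before any comparison, the ovarian peak lists resembled each other across their labels rather than within them. Of the peaks of the lists labelled OVCAR8 knockdown, 95.9% were shared with SKOV3 control (an overlap of 1 bp on the same strand, mean over pairs of lists) and 69.3% with OVCAR8 control. Of the peaks of the lists labelled SKOV3 knockdown, 56.5% were shared with SKOV3 control and 81.9% with OVCAR8 control. LOVO knockdown shared 73.1% of its peaks with LOVO control, and RKO knockdown shared 45.1% with RKO control. The peaks in the demethylase genes showed the same order. OVCAR8 knockdown shared 98.5% of them with SKOV3 control and 87.0% with OVCAR8 control, while SKOV3 knockdown shared 70% with SKOV3 control and 87% with OVCAR8 control. Replicate lists of one group shared 84.8% to 100% of these peaks. All groups below are named as labelled, and every direction in OVCAR8 and SKOV3 depends on those labels, and values of LOVO and RKO are given beside them for the 10 genes. The lists held 15484 and 15744 peaks in OVCAR8 knockdown, 26178 to 29102 in the other ovarian groups and 31060 to 37398 in LOVO and RKO. Peak lists do not measure RNA levels, so neither the loss of METTL3 itself nor the amount of each demethylase transcript could be checked. Fewer methylated sites and less RNA of a gene cannot be told apart in a peak count.

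Of 15 RefSeq promoter windows of the 10 genes (250 bases before to 50 after an annotated start), 2 were covered by a peak on the strand of the gene. They are shown because they place a peak at a transcript's start, whereas most peaks of these genes lay far downstream. The KDM5A window, chr12:389271-389570 on the minus strand of GRCh38.p14, lay under a peak in all 12 lists, which covered 285 to 300 of its 300 bases. The KDM4C window, chr9:6757723-6758022 on the plus strand, belongs to a start inside the annotated gene and lay wholly under a peak in 11 lists, all but RKO knockdown. Both are printed 5′ to 3′ on the strand of the gene, with each match to GGAC followed by A, C or T on that strand in capitals.
KDM5A promoter window: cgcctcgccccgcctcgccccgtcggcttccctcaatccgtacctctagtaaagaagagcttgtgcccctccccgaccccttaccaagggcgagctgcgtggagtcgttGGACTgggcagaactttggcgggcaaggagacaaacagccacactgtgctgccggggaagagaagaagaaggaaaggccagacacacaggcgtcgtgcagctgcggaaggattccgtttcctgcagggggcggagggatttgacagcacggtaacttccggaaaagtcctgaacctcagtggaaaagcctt
KDM4C promoter window: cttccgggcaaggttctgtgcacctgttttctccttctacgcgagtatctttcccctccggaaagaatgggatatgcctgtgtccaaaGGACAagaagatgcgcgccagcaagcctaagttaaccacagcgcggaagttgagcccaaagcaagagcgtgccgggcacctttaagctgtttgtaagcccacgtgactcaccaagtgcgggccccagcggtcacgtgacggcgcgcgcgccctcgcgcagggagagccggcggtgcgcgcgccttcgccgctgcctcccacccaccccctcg
Each window held 1 match on the strand of the gene and 1 on the other strand. Such a match was found on the strand of the gene in 58.7% of all 35116 RefSeq windows and on either strand in 82.3%, and it describes the letters only. The windows of the other 8 genes carried no peak on the strand of the gene. At KDM2B, 1 window lay under a peak of the opposite strand in 5 lists.

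Across the 12 lists the demethylase genes held 601 peaks, and 9 of the 10 genes had a peak in every list. KDM5B was the exception, with no peak in the 4 lists of OVCAR8 knockdown and SKOV3 control. The genes were chosen with earlier results known, and the share of all genes with a peak in every list was not counted. Of the 10 other lysine demethylase genes described below, only KDM3A, JMJD1C and PHF2 had a peak in every list. KDM5A had a median of 8.5 peaks per list (5 to 15) and KDM4B of 9 (4 to 13). KDM2B varied most, with 1 to 14 peaks per list and a median of 7.5. The rest of the 10 member genes had medians of 3 to 5 peaks per list, and their ranges overlapped. Gene length did not order these numbers (Spearman rho = 0.15 over the 10 genes, which share all lists). KDM4C, the longest gene at 454.786 kb, had 0.825 peaks per 100 kb and list, and KDM6B, the shortest at 20.58 kb, had 21.5. The peaks of these genes made up 0.148% to 0.210% of a list. In the 8 ovarian lists, whose deposited values allow it, the peak summits in these genes stood on 32 to 409 reads, with medians of 71 to 110 per list.

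**Figure D1:**
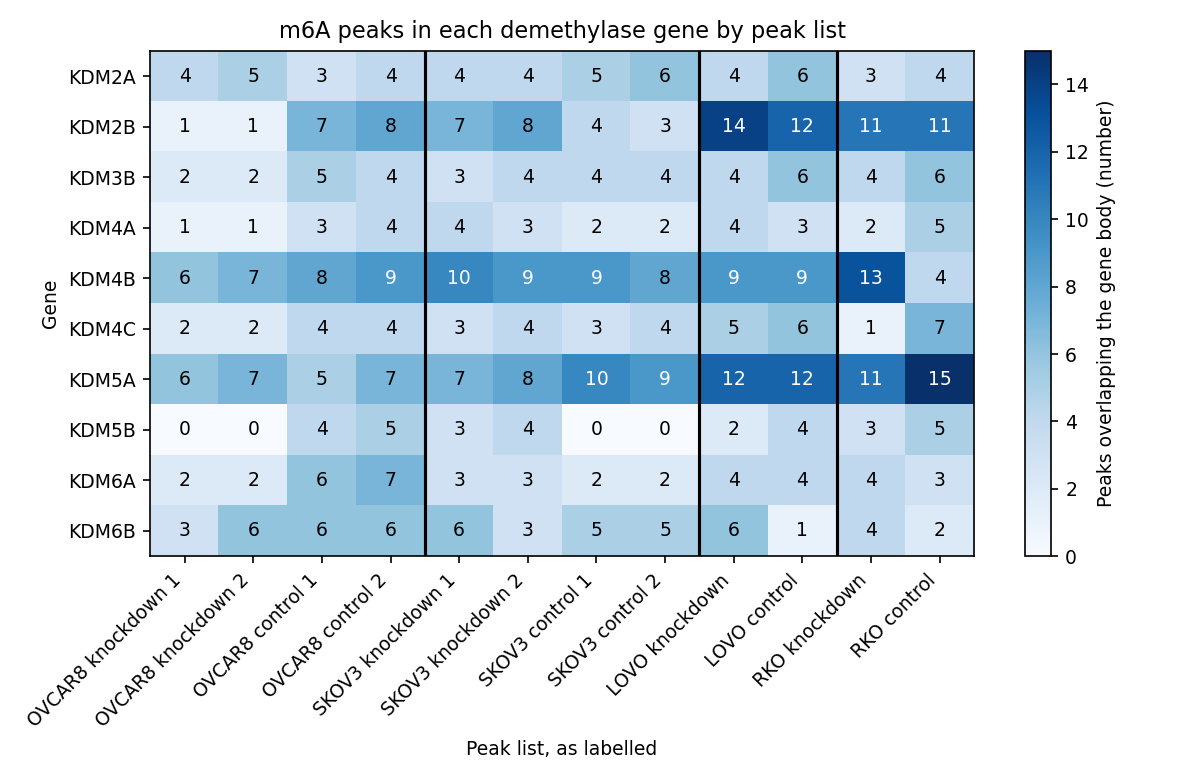
Number of m6A peaks overlapping each demethylase gene (rows) in each of the 12 peak lists (columns, as labelled, separated by cell line); the number in each cell is the peak count and the colour follows it. KDM5B is at 0 in both OVCAR8 knockdown lists and both SKOV3 control lists, and KDM2B is at 1 in both OVCAR8 knockdown lists.

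Merged over the 12 lists, the peaks formed 106 regions, 93 on the strand of the gene and 13 on the opposite strand. Of these, 18 (17%) were present in all 12 lists, where 5.36% of all 87085 regions of the genome and 5.84% of those in genes were. Another 34 (32.1%) were in a single list, against 37.8% of all regions and 36.3% of those in genes. By mean peak number the member genes ranked high among all genes with a peak, from percentile 80.3 (KDM5B) to 98.3 (KDM5A). Genes of like peak number were not taken as a background for these shares, which are descriptions. KDM5A held 4 of the regions seen in all lists, KDM2A and KDM4B 3 each, KDM3B and KDM6A 2 each, KDM2B, KDM4A, KDM4C and KDM6B 1 each, and KDM5B none. The regions on the strand of the gene lay towards its 3′ end. The last 20% of the gene body held 36 of 93 (38.7%) and the first 20% held 8 (8.60%). Over 44294 regions of 8816 protein-coding genes at least as long as KDM6B, these shares were 27.8% and 21.7%. The genes differed in this. In KDM3B all 7 regions lay between 40% and 61% of the gene body. The last 20% held 1 of 7 own-strand regions in KDM6B and 3 of 12 in KDM2B, and larger shares in the remaining genes.

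**Figure D2:**
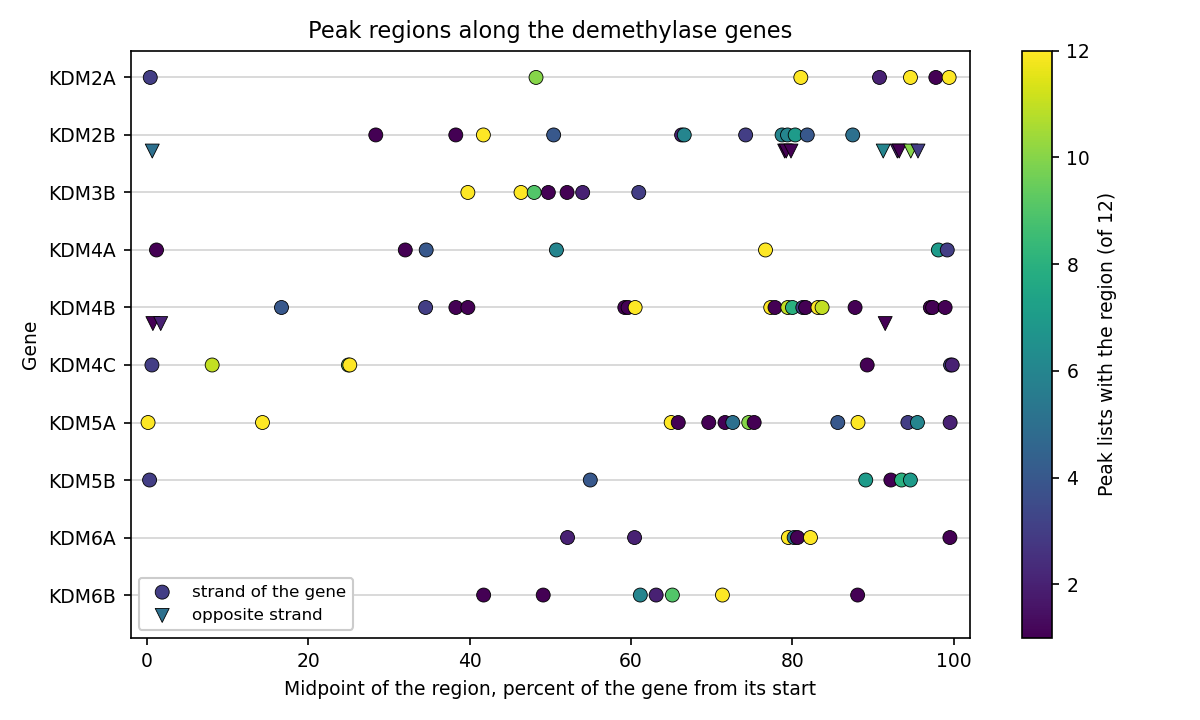
Midpoint of each peak region along its demethylase gene (x axis, percent of the gene body from the start) for the 10 genes (rows), coloured by the number of the 12 peak lists that hold it. Circles are regions on the strand of the gene and triangles, drawn below the line, regions on the opposite strand; the 36 own-strand regions in the last 20% outnumber the 8 in the first 20%.

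Peak numbers were then compared between METTL3 knockdown and control over the 4 lines with a two-sided exact permutation test of log2(peaks + 1), with labels permuted within each line (144 arrangements, smallest possible p = 0.0139). Of the 10 genes, 8 had a lower mean in knockdown and 2, KDM4B and KDM6B, a higher one. Among all 19156 genes 59.3% were lower, so this count is a description. Relative to all peaks in genes of each list, 4 of the 10 (KDM3B, KDM4A, KDM4C and KDM5B) were lower and 6 higher. The median difference was -0.23 on this log2 scale over the 10 genes and -0.12 over all genes. KDM3B was the only member with an unadjusted p under 0.05 (lower in 4 of 4 lines, mean log2 difference -0.50, exact permutation p = 0.0417). After Benjamini-Hochberg adjustment over all genes by this exact permutation test its adjusted p was 1, as was that of the other 9 genes. Across all genes the test called 1.58% lower and 0.0835% higher at an unadjusted p under 0.05 (318 genes in all), and 0 after adjustment. With a smallest possible p of 0.0139, a gene could pass adjustment only if a large number of the 19156 genes reached it. The adjusted values therefore cannot decide whether a gene differs.

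Within OVCAR8, 7 of the 10 genes had fewer peaks in both knockdown lists than in either control list and none had more, where 46.3% of the genes with a peak in that line had fewer and 15.3% had more. In SKOV3, 2 genes had fewer (background 31.6%) and 4 had more (26.3%). LOVO and RKO have 1 list per group, so a difference of 1 peak counts there. In LOVO 4 genes had fewer (43.1%) and 3 had more (25.8%), and in RKO 6 had fewer (46%) and 3 had more (36.5%). Among protein-coding genes with a mean peak number in the range of the 10, the share with fewer peaks was 60.8% in RKO, 53.9% in OVCAR8, 47.9% in LOVO and 30.7% in SKOV3, and the share with more was 27.4%, 15%, 31.2% and 36.1% in that order. Summed over the 10 genes, peaks numbered 30 ± 4.24 in OVCAR8 knockdown and 54.5 ± 4.95 in OVCAR8 control (SD, n = 2 lists each). They numbered 50 ± 0 in SKOV3 knockdown and 43.5 ± 0.707 in SKOV3 control (SD, n = 2 lists each). The single lists held 64 peaks in LOVO knockdown and 63 in LOVO control, and 56 in RKO knockdown and 62 in RKO control. As a share of all peaks of a list, the 10 genes made up 0.174% and 0.210% in OVCAR8 knockdown and 0.181% and 0.202% in OVCAR8 control, and 0.191% and 0.186% in SKOV3 knockdown and 0.152% and 0.148% in SKOV3 control. The share was 0.206% in LOVO knockdown and 0.174% in LOVO control, and 0.165% in RKO knockdown and 0.166% in RKO control. The summed numbers thus differed in opposite directions in the ovarian lines, while the shares overlapped in OVCAR8, lay higher in SKOV3 and LOVO knockdown and were close in RKO.

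Regions were also followed one by one. A control region (a merged peak present in every control list of the line) was called lost if no knockdown peak touched it, and a knockdown region was called gained in the converse case. In OVCAR8, 24 of 50 control regions of the demethylase genes were lost (48%, exact Clopper-Pearson 95% interval 33.7% to 62.6%) and 26 were kept, with 57.8% lost over all regions of the line. In SKOV3, 5 of 36 were lost (13.9%, 4.67% to 29.5%; all regions 44.4%) and 31 were kept. In LOVO, 16 of 63 were lost (25.4%, 15.3% to 37.9%; all regions 37.8%) and 47 were kept. In RKO, 28 of 62 were lost (45.2%, 32.5% to 58.3%; all regions 60.1%) and 34 were kept. The percentage was below that of all regions in each line, and the interval took in that of all regions in OVCAR8 and, narrowly, in LOVO. These intervals cover counting error only, and regions of one gene come from the same transcript. Leaving out SKOV3 control list 1 raised the lost share in SKOV3 to 23.3%.

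Gained regions were 2 of 27 in OVCAR8 knockdown (7.41%, 0.910% to 24.3%; all regions 25.9%) and 9 of 41 in SKOV3 knockdown (22.0%, 10.6% to 37.6%; all regions 36.5%). They were 14 of 64 in LOVO knockdown (21.9%, 12.5% to 34.0%; all regions 26.9%) and 21 of 56 in RKO knockdown (37.5%, 24.9% to 51.5%; all regions 54.9%). Leaving out OVCAR8 knockdown list 1 gave 15.2% gained in OVCAR8. RKO thus had the highest gained share. With 1 list per group, the gained share over all regions is the remainder of the shared percentage given above, so it is not a separate observation. When the same number of strongest peaks was taken from each list, 63.6% of the RKO control regions of these genes were lost, against 60.2% of all, and 31.0% in OVCAR8, against 44.5%. In LOVO the gained share was then 38.9%, the same as that of all regions.

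**Figure D3:**
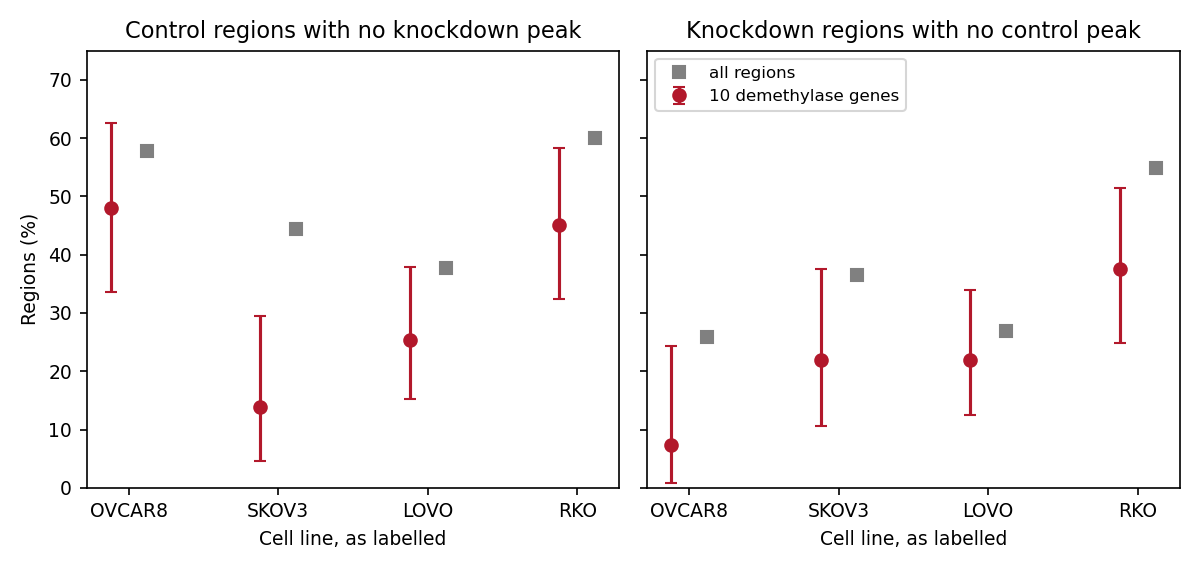
Percent of control regions with no knockdown peak (left) and of knockdown regions with no control peak (right) in each cell line, as labelled, for the 10 demethylase genes (red points with exact 95% intervals, counting error only) and for all regions (grey squares). The red points lie below the grey squares in all 4 lines, with the lowest lost share, 13.9%, in SKOV3.

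KDM2A and KDM2B remove methyl groups from H3K36 and bind unmethylated CpG islands. KDM2A (chr11:67119263-67258082, plus strand) had 4 and 5 peaks in OVCAR8 knockdown and 3 and 4 in OVCAR8 control, and 4 and 4 in SKOV3 knockdown and 5 and 6 in SKOV3 control. It had 4 peaks in LOVO knockdown and 6 in LOVO control, and 3 in RKO knockdown and 4 in RKO control. KDM2A was thus the most even of the 10 genes, with overlapping groups in OVCAR8 and 1 or 2 fewer knockdown peaks in the other lines (mean log2 difference -0.22, exact permutation p = 0.25). All 3 of its control regions in OVCAR8 were kept, as were 3 of 4 in RKO, 4 of 6 in LOVO and 4 of 5 in SKOV3, and no line gained one. Its 3 regions seen in all lists lay at 81%, 95% and 99% of the gene body.

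KDM2B (chr12:121408461-121582279, minus strand), which also brings a variant Polycomb repressive complex 1 to CpG islands, had 1 and 1 peaks in OVCAR8 knockdown and 7 and 8 in OVCAR8 control. It had 7 and 8 peaks in SKOV3 knockdown and 4 and 3 in SKOV3 control. In LOVO it had 14 in knockdown and 12 in control, and in RKO 11 in each. The lists of the 2 ovarian lines did not overlap between groups, in opposite directions (log2 difference -2.08 in OVCAR8 and 0.92 in SKOV3), and over the 4 lines the exact permutation p was 0.44. On its own strand KDM2B had 1 and 1 peaks in OVCAR8 knockdown and 5 and 5 in OVCAR8 control, 5 and 5 in SKOV3 knockdown and 2 and 2 in SKOV3 control. On that strand it had 11 peaks in LOVO knockdown and 8 in LOVO control, and 4 in RKO knockdown and 8 in RKO control. Equal numbers in RKO thus came from fewer peaks on the strand of the gene and more on the other in knockdown. Of its control regions, 6 of 7 were lost in OVCAR8, 5 of 11 in RKO, 2 of 12 in LOVO and 0 of 2 in SKOV3. One region, chr12:121509390-121510145, was present in all 12 lists, and it alone remained in OVCAR8 knockdown.

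Of the 21 regions counted for KDM2B, 9 lay on the opposite strand. Of these, 5 overlapped RNF34, a neighbouring gene on the plus strand whose end overlaps the end of KDM2B, and the most frequent of these, chr12:121417543-121417886, was in 10 lists. One lay in KDM2B-DT, a divergent transcript at the start of KDM2B, and was in 5 lists, namely both OVCAR8 control lists, both SKOV3 knockdown lists and RKO knockdown. The other 3 overlapped no annotated gene of that strand and were found only in RKO knockdown. Peaks of the opposite strand were counted for 3 of the 10 genes, 39 of 601 peaks in all (30 in KDM2B, 5 in KDM6B and 4 in KDM4B). In KDM6B all 5 came from 1 region in LOC124904106, an antisense gene, seen in the same 5 lists as the KDM2B-DT region.

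KDM3B (chr5:138352685-138437027, plus strand) demethylates H3K9. It had 2 and 2 peaks in OVCAR8 knockdown and 5 and 4 in OVCAR8 control, and 3 and 4 in SKOV3 knockdown and 4 and 4 in SKOV3 control. In both LOVO and RKO it had 4 peaks in knockdown and 6 in control. The groups did not overlap in OVCAR8 and touched in SKOV3. Its unadjusted exact permutation p ranged from 0.0139 to 0.417 over the alternatives. Its 2 regions seen in all lists lay at 40% and 46% of the gene body, and the wider of them, chr5:138390950-138392659, spans 1710 bp. No line gained a KDM3B region in knockdown, while 2 of 4 control regions were lost in OVCAR8, 3 of 6 in RKO, 2 of 6 in LOVO and 0 of 4 in SKOV3.

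KDM4A, KDM4B and KDM4C demethylate trimethylated H3K9 and H3K36. KDM4A (chr1:43650149-43705518, plus strand) had 1 and 1 peaks in OVCAR8 knockdown and 3 and 4 in OVCAR8 control, and 4 and 3 in SKOV3 knockdown and 2 and 2 in SKOV3 control. It had 4 in LOVO knockdown and 3 in LOVO control, and 2 in RKO knockdown and 5 in RKO control. Knockdown lists were thus lower in OVCAR8 and RKO and higher in SKOV3 and LOVO (mean log2 difference -0.32, exact permutation p = 0.42). The one region present in all 12 lists, chr1:43692263-43692942, ranked between 4.08% and 19.0% from the top of each list by peak strength (−log10 p in the ovarian lists and the deposited score in LOVO and RKO). It was the single peak left in OVCAR8 knockdown.

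KDM4B (chr19:4969113-5153598, plus strand) had 6 and 7 peaks in OVCAR8 knockdown and 8 and 9 in OVCAR8 control, and 10 and 9 in SKOV3 knockdown and 9 and 8 in SKOV3 control. It had 9 in each LOVO list, and 13 in RKO knockdown and 4 in RKO control. The RKO difference was the widest of this gene, with 9 of 13 knockdown regions absent from the control and all 4 control regions kept. Bases covered by peaks in KDM4B were 5934 in RKO knockdown and 1178 in RKO control. The mean log2 difference over lines, 0.32 (exact permutation p = 0.83), became -0.066 without RKO. Relative to all peaks in genes it was 0.62, with the smallest exact permutation p possible, 0.0139, and an adjusted p of 0.383. Of its 22 regions 12 were in a single list, and 3 were in all 12, at 61%, 77% and 83% of the gene body.

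KDM4C (chr9:6720863-7175648, plus strand) had 2 and 2 peaks in OVCAR8 knockdown and 4 and 4 in OVCAR8 control, and 3 and 4 in both SKOV3 knockdown and SKOV3 control. It had 5 in LOVO knockdown and 6 in LOVO control, and 1 in RKO knockdown and 7 in RKO control. It was lower in knockdown in 3 lines and equal in SKOV3, with a mean log2 difference of -0.74 (exact permutation p = 0.0694), which was -0.32 without RKO (p = 0.139). Counted as bases covered by peaks, the exact permutation p was 0.0139. In RKO 6 of 7 control regions were lost, including that over the printed promoter window, and the one kept, chr9:6834867-6835742, was present in all 12 lists. Bases covered by peaks were 521 in RKO knockdown and 3470 in RKO control. Thus KDM4B and KDM4C, members of the same subfamily, differed in opposite directions between the single RKO lists.

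KDM5A and KDM5B demethylate H3K4. KDM5A (chr12:280057-389320, minus strand) had 6 and 7 peaks in OVCAR8 knockdown and 5 and 7 in OVCAR8 control, and 7 and 8 in SKOV3 knockdown and 10 and 9 in SKOV3 control. It had 12 in each LOVO list, and 11 in RKO knockdown and 15 in RKO control. The groups overlapped in OVCAR8 and not in SKOV3 (mean log2 difference over lines -0.15, exact permutation p = 0.28). Bases covered by peaks were 2585 and 3131 in SKOV3 knockdown and 8023 and 7988 in SKOV3 control, and 2485 and 2810 in OVCAR8 knockdown and 1785 and 1907 in OVCAR8 control. By covered bases, too, OVCAR8 knockdown lay above its control and SKOV3 knockdown below. KDM5A kept all 5 control regions in OVCAR8, 9 of 15 in RKO, 9 of 12 in LOVO and 5 of 7 in SKOV3. Its 4 regions seen in all lists included that at the gene start, chr12:388677-389592, which holds the promoter window printed above and had a median rank of 14.8% from the top of a list. Another, chr12:370811-376474, spanned 5664 bp at 14% of the gene body.

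KDM5B (chr1:202724495-202808421, minus strand) had 0 and 0 peaks in OVCAR8 knockdown and 4 and 5 in OVCAR8 control, and 3 and 4 in SKOV3 knockdown and 0 and 0 in SKOV3 control. It had 2 in LOVO knockdown and 4 in LOVO control, and 3 in RKO knockdown and 5 in RKO control. The ovarian lists therefore held either no KDM5B peak or at least 3, with OVCAR8 control and SKOV3 knockdown on one side and OVCAR8 knockdown and SKOV3 control on the other. Over the 4 lines the mean log2 difference was -0.40 (lower in 3 of 4 lines, exact permutation p = 0.46). All 4 control regions were lost in OVCAR8 and all 3 knockdown regions were gained in SKOV3. In LOVO 2 of 4 control regions were lost and in RKO 2 of 5, and neither line gained one. The region found in most lists, chr1:202729708-202730135 at 94% of the gene body, was present in all 8 lists that had any KDM5B peak.

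**Figure D4:**
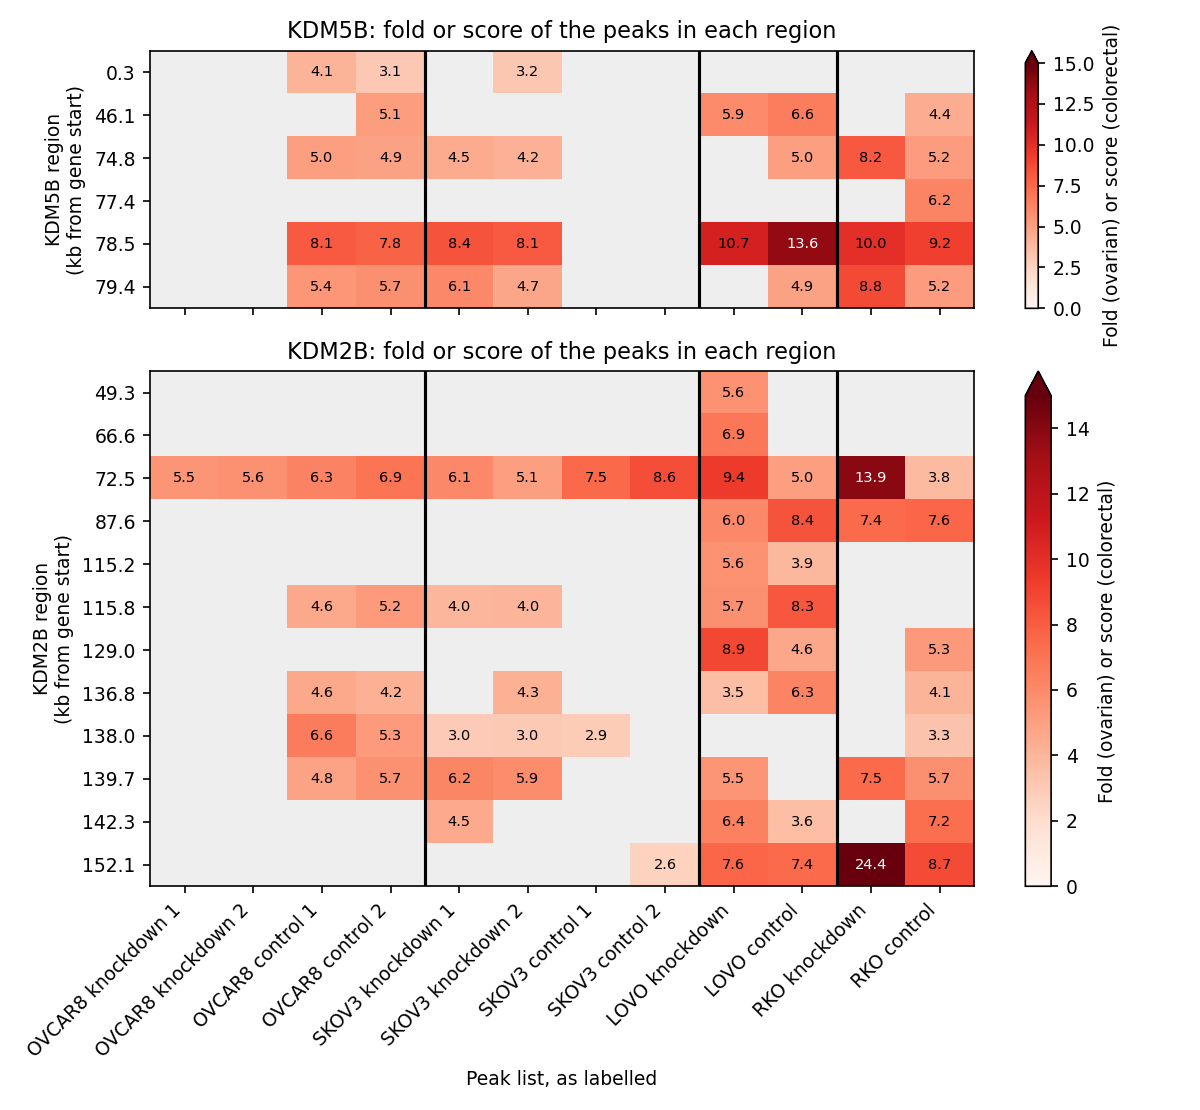
Deposited fold (OVCAR8 and SKOV3) or score (LOVO and RKO) of the strongest peak in each region of KDM5B (top) and KDM2B (bottom, own strand only), with regions as rows by distance from the gene start in kb and the 12 lists as columns; grey means no peak. KDM5B has no peak in OVCAR8 knockdown and SKOV3 control, and in KDM2B 1 row, at 72.5 kb, is filled in all 12 lists; folds and scores are not on one scale across lines.

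KDM6A and KDM6B demethylate H3K27, and KDM6A, encoded on the X chromosome, works in the MLL3 and MLL4 methyltransferase complexes. KDM6A (chrX:44873188-45112779, plus strand) had 2 and 2 peaks in OVCAR8 knockdown and 6 and 7 in OVCAR8 control, and 3 and 3 in SKOV3 knockdown and 2 and 2 in SKOV3 control. It had 4 in each LOVO list, and 4 in RKO knockdown and 3 in RKO control. OVCAR8 control stood highest and the other 10 lists held 2 to 4 peaks (mean log2 difference over lines -0.15, exact permutation p = 0.44). In OVCAR8 4 of 6 control regions were lost, and 2 of these, at 52% and 60% of the gene body, were found in the OVCAR8 control lists only. Both KDM6A regions present in all 12 lists were close together, at 80% and 82% of the gene body. The second, chrX:45069524-45070963, ranked at a median of 5.31% from the top of a list.

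KDM6B (chr17:7834217-7854796, plus strand) had 3 and 6 peaks in OVCAR8 knockdown and 6 and 6 in OVCAR8 control, and 6 and 3 in SKOV3 knockdown and 5 and 5 in SKOV3 control. It had 6 in LOVO knockdown and 1 in LOVO control, and 4 in RKO knockdown and 2 in RKO control. The replicate lists of both ovarian knockdowns differed by 3 peaks, as much as any difference between the groups there (mean log2 difference over lines 0.49, exact permutation p = 0.42, and -0.29 over OVCAR8 and SKOV3 only). The strongest region of all 10 genes lay here: chr17:7847888-7849908, 2021 bp, present in all 12 lists with a median rank of 1.67% from the top. It was split into 1 to 3 peaks by list, and bases covered in KDM6B, 2473 in LOVO knockdown and 1340 in LOVO control, differed less than the peak number did. In LOVO 4 of 6 knockdown regions were gained and the 1 control region was kept.

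Set side by side, the regions of the ovarian lists followed the crossed order of their labels. Of the regions in the demethylase genes, 8 were in the OVCAR8 control and SKOV3 knockdown lists and in none of the other 4 ovarian lists (KDM2B 3, KDM5B 3, KDM4A 1 and KDM6B 1). One region, in KDM4B, showed the reverse. None was in both control groups and absent from both knockdown groups, and none was in both knockdown groups and absent from both control groups. Over all regions of the genome these 4 patterns held 5868, 2349, 104 and 3 regions. Another 21 regions of 9 genes, all but KDM5B, were in all 8 ovarian lists, where 7668 regions of the genome were. The sum over the 10 genes of the absolute difference in mean peak number was 13.5 between OVCAR8 knockdown and SKOV3 control, and 27.5 between OVCAR8 knockdown and OVCAR8 control. It was 10.5 between SKOV3 knockdown and OVCAR8 control, and 15.5 between SKOV3 knockdown and SKOV3 control. For LOVO knockdown the nearest control was its own (15), and for RKO knockdown it was LOVO control (21), with 30 to RKO control.

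Lists of related genes were read the same way, and counts of lower genes are descriptions, since 59.3% of all genes were lower. Of 10 other lysine demethylase genes, all had a peak, 7 with a lower and 3 with a higher mean in knockdown, and none was called by the exact permutation test, unadjusted or adjusted. JMJD1C, a relative of KDM3B, had 5 and 6 peaks in OVCAR8 knockdown and 7 and 8 in OVCAR8 control, 11 and 10 in SKOV3 knockdown and 7 and 8 in SKOV3 control, 5 in LOVO knockdown and 11 in LOVO control, and 11 in RKO knockdown and 15 in RKO control. PHF8, an H3K9 and H4K20 demethylase, had no peak in either OVCAR8 knockdown list and 11 and 9 in OVCAR8 control, with 8 and 6 in SKOV3 knockdown and 1 and 0 in SKOV3 control. PHF8 had 3 in each LOVO list, and 2 in RKO knockdown and 6 in RKO control. KDM5C, the X-linked relative of KDM5B, had 0 and 0 in OVCAR8 knockdown and 7 and 7 in OVCAR8 control, with 4 and 4 in SKOV3 knockdown and 0 and 0 in SKOV3 control. It had 7 in LOVO knockdown and 5 in LOVO control, and 4 in RKO knockdown and 6 in RKO control. KDM5C and KDM5B were thus at 0 in the same 4 ovarian lists.

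Of 9 genes whose products partner KDM2B in the variant Polycomb complex, 7 had a peak, 6 with a lower and 1 with a higher mean in knockdown and none called. BCOR, a scaffold of that complex, had 4 and 4 peaks in OVCAR8 knockdown and 20 and 24 in OVCAR8 control, 14 and 15 in SKOV3 knockdown and 4 and 4 in SKOV3 control, 8 in each LOVO list, and 4 in RKO knockdown and 6 in RKO control. BCORL1 and YAF2 came next in peaks, with mean log2 differences of -0.45 and -0.65 (exact permutation p = 0.25 and 0.0833). Of 9 MLL3 and MLL4 complex genes, 8 had a peak, 6 lower, 2 higher and none called. The methyltransferase genes KMT2D and KMT2C, with 197 and 98 peaks over all lists, differed by 0.00 and -0.15 on the log2 scale, and NCOA6 by -0.23. Of 8 genes of the CoREST complex, the partner of KDM1A, 7 had a peak, all 7 lower (59.3% of all genes were) and none called. PHF21A had 1 and 1 peaks in OVCAR8 knockdown and 11 and 8 in OVCAR8 control, 3 and 3 in SKOV3 knockdown and 1 and 1 in SKOV3 control, 1 in LOVO knockdown and 2 in LOVO control, and 3 in RKO knockdown and 9 in RKO control. HMG20B and HDAC1 differed by -0.08 and -0.47 on the log2 scale.

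Peaks in lineage genes were counted as a check of the labelled tissue. MUC16, which encodes the CA125 antigen, had 5 to 6 peaks in each of the OVCAR8 control and SKOV3 knockdown lists and none in any other list. PAX8, a Müllerian transcription factor, had 0 and 0 peaks in OVCAR8 knockdown and 6 and 6 in OVCAR8 control, 5 and 4 in SKOV3 knockdown and 3 and 3 in SKOV3 control, 0 in LOVO knockdown and 1 in LOVO control, and 0 in RKO knockdown and 5 in RKO control. MECOM was at 0 in OVCAR8 knockdown and SKOV3 control, and had 14 and 14 peaks in OVCAR8 control and 8 and 7 in SKOV3 knockdown. MECOM also had 8 in LOVO knockdown and 14 in LOVO control, and 1 in RKO knockdown and 11 in RKO control. WT1, SOX17 and EMX2 were at 0 in every list. Summed over the 6 ovarian markers, lists of OVCAR8 control held 25 peaks each, those of SKOV3 knockdown 17 to 18, those of SKOV3 control 3 each and those of OVCAR8 knockdown 0. The same sum was 8 in LOVO knockdown and 15 in LOVO control, and 1 in RKO knockdown and 16 in RKO control, so the sum did not separate the ovarian from the colorectal lists. Of the intestinal markers, HNF4A, LGR5 and CDH17 had peaks only in LOVO. CDX2, an intestinal transcription factor, had 3 peaks in LOVO knockdown and 4 in LOVO control, and 0 in RKO knockdown and 3 in RKO control. The part of these differences in the demethylase counts was not tested.

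The genes with the widest range of log2(peaks + 1) over the lists, KDM2B, KDM5B and KDM4C, were set against 9718 genes that had a peak in at least 6 lists. Nearest to KDM2B were SH2B1 (Pearson r = 0.98), ZBTB11 (0.98) and LOC107985544 (0.98). Nearest to KDM5B were CARMIL1 (0.99), CCDC124 (0.99) and CDC42BPB (0.99). Nearest to KDM4C were RTN4RL2 (0.96), FKBP15 (0.96) and PLEKHM1P1 (0.96). These are likenesses over 12 lists that share libraries, cell lines and list length, picked as the highest of many. CARMIL1, CCDC124 and CDC42BPB were at 0 in both OVCAR8 knockdown and both SKOV3 control lists, as KDM5B was.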

How the data were processed

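The 10 genes and all gene lists were chosen with earlier results of these data known. Of 16 MeRIP and 16 input libraries of 4 lines, the 12 deposited MeRIP peak lists were analysed. The submitters' processing notes name MACS2 2.2.7.1, HISAT2 2.1.0, Bowtie2 2.4.2 and Trim Galore 0.6.6, without saying what each did, and the build hg38. In the OVCAR8 and SKOV3 lists the authors deposited, for each peak, a fold enrichment and −log10 p and q values. In the LOVO and RKO lists the authors deposited a score per peak, at least 3, that no header explains, and the sources used here do not say how replicate 2 entered them. Folds and scores were compared only inside one list, for description, ranking and filtering.

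Peaks on chromosomes 1 to 22 and X were assigned to every RefSeq gene body (GRCh38.p14) they overlapped by 1 bp. All 10 genes matched by symbol, and none was left out for low values. The test was a two-sided exact permutation test over lists within lines on log2(peaks + 1), adjusted by Benjamini-Hochberg over 19156 genes. On simulated data it gave an unadjusted p under 0.05 for 87.5% of 200 genes changed 4-fold and for 1.26% of unchanged genes, among 19156. The simulation drew Poisson counts around 1 mean per gene for all lists, without differences between lines. Changed genes were taken from those with higher mean peak numbers and changed in the same direction in every line. These rates therefore need not hold for the real lists. To form regions, peaks of one strand that touched were joined if each list of the group had one. Intervals are exact Clopper-Pearson 95% intervals and cover counting error only. The sources used here give no read totals. Depth at summits was read from fold and p in the ovarian lists, assuming a Poisson tail with 1 added to both counts, and 100% of summits then came out whole within 10% of a step of 1 read.

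The genes named are the 10, from each other list the 3 with most peaks, and for the 3 of the 10 with the widest range, the 3 genes most like each. LGR5, CDH17, WT1, SOX17 and EMX2 are named besides, after their values were seen. One intestinal marker, and the sum over that list, is not reported here. Alternatives were equal peak numbers per list, a fold or score of at least 5, and only peaks or regions in 1 gene. For gene counts they also included peaks on the gene strand, bases covered, adding 0.5 before the log, and counts relative to all peaks in genes. The 8 ovarian lists were also taken as 1 stratum, and a replicate block was used. Regions were also taken at 50% coverage, from any list of the group, as absent from at least 1 list, or with peaks of either strand. Left out in turn were each ovarian list, the RKO lists, or both colorectal lines. The background over protein-coding genes of like peak number and the LOVO-only value were added after seeing the data. Promoter sequences are those of RefSeq. Python 3.11.15, numpy 2.4.6, pandas 2.3.3 and scipy 1.17.1 were used.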

Additional observations from a re-analysis of the deposited data

Results flagged for a closer look

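The knockdown minus control difference in log2(peaks + 1) had opposite directions in the ovarian lines for 4 genes, with every knockdown list below every control list in OVCAR8 and above it in SKOV3. OVCAR8 minus SKOV3, it was -3.009 for KDM2B, -1.737 for KDM4A, -4.614 for KDM5B and -1.734 for KDM6A. In a two-sided exact permutation test within the lines each had p = 0.0556, the smallest that 36 arrangements can give, and an adjusted p of 0.139 over the 10 genes. The design can therefore not reach the threshold of 0.05. The lists of OVCAR8 knockdown and SKOV3 control had equal numbers of KDM5B and of KDM6A peaks. The share of all genes with this crossed pattern was not counted, so naming these 4 genes is a description. Among the ovarian lists, 5868 regions of the genome were in those of OVCAR8 control and SKOV3 knockdown only, and 2349 showed the reverse. In both control groups only there were 104, and in both knockdown groups only 3. Whether labels were exchanged was not tested.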

How the results depend on the processing

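Of 200 recomputed gene differences over lines, 9 changed direction where a test was run. In LOVO alone, which has no test, 2 more turned positive (KDM2B 0.21 and KDM4A 0.32). The other 189 did not reverse, counting KDM4B, KDM5A and KDM6A at 0 in LOVO alone. Where a test was run, every adjusted p stayed above the threshold. The direction changed for KDM2B with folds or scores of at least 5 (0.048), with peaks in 1 gene only (0.031) and relative to all peaks in genes (0.0012). Relative to all peaks in genes it also changed for KDM2A (0.070), KDM5A (0.16) and KDM6A (0.10). There KDM4B had 0.62 with an exact permutation p of 0.0139. KDM4B turned to -0.066 without RKO and to -0.10 with OVCAR8 and SKOV3 only, and KDM6B to -0.29 with OVCAR8 and SKOV3 only. With equal numbers of peaks per list, 31.0% of control regions were lost in OVCAR8 and 63.6% in RKO, 38.9% of LOVO knockdown regions were gained, and 2 genes had more peaks in OVCAR8 knockdown and 1 in SKOV3 knockdown. With folds or scores of at least 5, LOVO lost 40.9% (all regions 44.7%) and gained 35.7% (all regions 29.9%). The gained share in LOVO thus lay above that of all regions at this setting, unlike in the main one. At the same setting 1 gene had more peaks in SKOV3 knockdown. By bases covered, 2 genes were higher in OVCAR8 knockdown and 7 lower in LOVO knockdown. Without one ovarian list at a time, 7 to 8 genes had fewer peaks in OVCAR8 knockdown and 0 to 2 had more (2 without OVCAR8 control list 2), and 2 to 3 had fewer and 4 to 6 more in SKOV3 knockdown. The lost share was then 48% to 52% in OVCAR8 and 13.9% to 23.3% in SKOV3, and the gained share 7.41% to 15.2% and 24% to 26.8%. No share of all genes stands beside the gene counts under these alternatives, so those counts are descriptions. The causes of these shifts were not tested. After adjustment, 0 of the 10 genes passed under every alternative run that has a test. The smallest p these tests can give lets a gene pass only if a large number of genes reach it. With OVCAR8 and SKOV3 only, no gene could pass. This 0 therefore cannot decide whether a gene differs. Same-numbered libraries, as labelled, did not deviate together (correlation of deviations 0.01 in OVCAR8 and -0.01 in SKOV3, 2 pairs each). No sign of pairing by number was thus seen, but 2 pairs per line cannot decide it. With the replicate block (64 arrangements, smallest p 0.0313) 0 of the 10 genes passed and KDM3B had an exact permutation p of 0.0625. Peak calls at 32 or more summit reads limit what a list can show, and an absent peak does not show an absent site.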
